A study of Arabidopsis thaliana with 15 samples.

Results

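AT2G40435 and AT3G57600 are the 2 transcription regulator genes of Arabidopsis thaliana followed here, chosen because induction of FAMA had raised their transcripts. Each is read by 1 of the 22746 probe sets tested, and each of these probe sets names that gene alone. The probe set 263829_at reads AT2G40435, a gene of chromosome 2 with 3 RefSeq transcripts, and 251598_at reads AT3G57600, a gene of chromosome 3 with 1. AT2G40435, a bHLH-like regulator, was picked for an early rise, at 4 h of FAMA. AT3G57600, an AP2/ERF factor, was picked for a late rise, at 48 h. The comparison that picked a gene is therefore given as a description with no test, and tests are kept for comparisons that did not pick it. AT3G57600 at 4 h is a limited case, as a pick for a late rise may favour a small early difference. So is AT2G40435 at 48 h, as the choice was made with earlier results of these data known.

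The experiment used whole seedlings of ecotype Columbia, transgenic for an estrogen-inducible cassette, grown for 5 days at 22 °C in constant light on MS medium with sucrose. Estrogen at 10 µM induced FAMA for 4 h (seedlings of 5 days) or 48 h (7 days), or FAMA-EAR, which is FAMA joined to the EAR repression domain, for 48 h (7 days). Controls of 4 h (5 days) and 48 h (7 days) were moved to fresh medium without estrogen. Each of the 5 groups has 3 Affymetrix ATH1 arrays, 15 in all. The labels name neither the plant lines, nor how many there were, nor the construct that the controls carried, and do not say whether the arrays of a group came from separate cultures, so the tests measure the spread between these arrays, which may be technical. A difference from a control holds estrogen and the construct together, while FAMA and FAMA-EAR at 48 h both had estrogen for the same time.

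FAMA is a basic helix-loop-helix (bHLH) transcription factor that acts at the end of the stomatal lineage, where a guard mother cell gives rise to a pair of guard cells. Factors of this family bind DNA as dimers, at short sites called E-boxes, and FAMA is known to pair with the bHLH proteins SCRM (ICE1) and SCRM2. AP2/ERF factors bind DNA through another domain, and many of them act in responses to ethylene, drought, cold or other stress. The EAR motif recruits co-repressors, and a fusion to it is used to turn an activator into a repressor of the genes it binds.

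Values are MAS5 signal intensities on a linear scale, as the authors deposited them, and their trimmed means were nearly equal on every array. Array medians lay between 188.2 and 198.95 on all arrays but the third of FAMA 4 h, which had 239.45 and a mean rank correlation of 0.929 with the others of its group. The induced gene matched the labels. FAMA had signals of 12830.6, 12604.5 and 11695.5 at 4 h of FAMA, against 255.7, 251.7 and 230.3 in the 4 h controls. At 48 h it had 18576.3, 16934.1 and 18562.6 with FAMA and 3456.5, 2726 and 2998.5 with FAMA-EAR, against 255, 245.9 and 229.6 in the controls. Among markers of the tissues of a seedling, RCA and LHCB4.1 of green tissue and PYK10 of roots had group means between 12349 and 24285, and all 3 were lower at 48 h of FAMA than in the controls.

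AT2G40435 was low without FAMA and high with it at both times. At 4 h its signal was 289.8, 198.3 and 241.8 on the FAMA arrays, against 45.6, 28.9 and 49.7 on the controls. Every FAMA array stood above every control array, as did 10.6% of all probe sets in this comparison. The means were 243.3 ± 45.8 with FAMA and 41.4 ± 11.0 in the controls (SD, n = 3 each), a ratio of 5.88. On the scale of log2(signal + 20) the difference was 2.10 (SE 0.215), the third highest of the 22746 probe sets, and 1.15% of these were called higher. The gene was picked on these arrays, so this size is a description and has no test here. In RNA of whole seedlings, more cells of a type that holds a transcript and more of it per cell cannot be told apart. The control signals lie about the lower quartile of an array, which was between 39.6 and 48 apart from that odd array, so the size of the difference depends on the offset of 20.

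**Figure D1:**
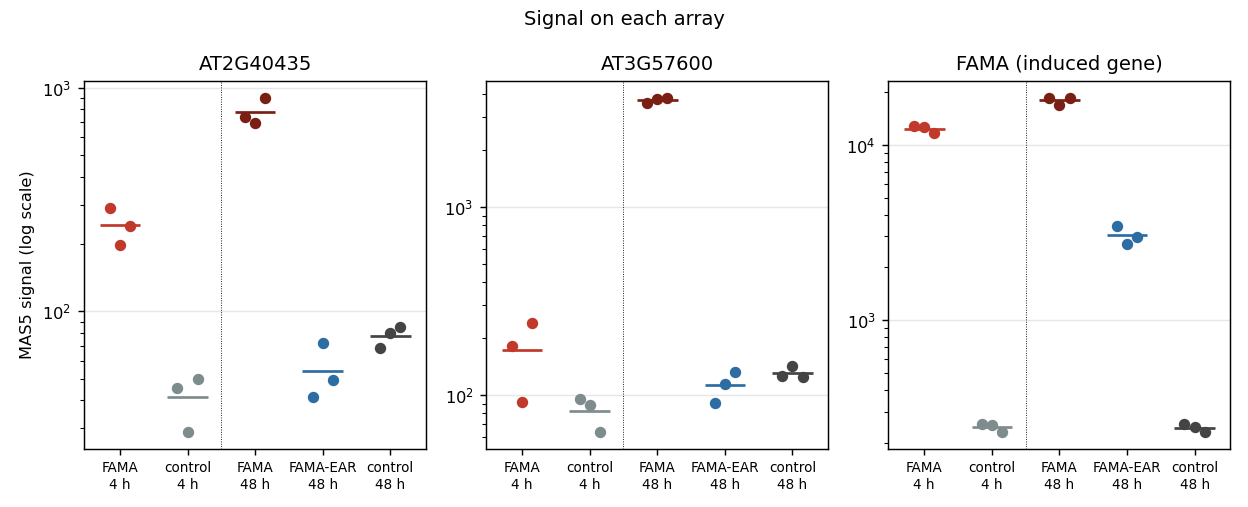
MAS5 signal (log axis) of AT2G40435, AT3G57600 and the induced gene FAMA on each of the 15 arrays, with points for arrays and bars for the means of the 5 groups. AT2G40435 stands above its controls at both times of FAMA, AT3G57600 stands apart only at 48 h of FAMA, and neither does so with FAMA-EAR although FAMA itself is 12.6-fold above the controls there.

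AT2G40435 also rose at 48 h of FAMA, on arrays other than those of the early rise it was picked for. The choice was made with earlier results of these data known, so its tests at 48 h may not be independent of the choice. Its signal was 735.9, 692.7 and 900 with FAMA, against 68.3, 80.2 and 84.9 in the controls of the same age. The groups did not overlap, which holds in this direction for 19.1% of all probe sets. The means were 776.2 ± 109 with FAMA and 77.8 ± 8.56 in the controls (SD, n = 3 each), a ratio of 9.98. The log2 fold change was 3.02 (SE 0.215, 95% interval 2.57 to 3.47, limma adjusted p = 1.59e-09), and 10.6% of all probe sets were called higher in this comparison. It ranked 39 from the top of the 22746 log2 fold changes.

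With FAMA-EAR the transcript of AT2G40435 was not raised. Its signal was 41.5, 72 and 49.2 with FAMA-EAR, against 68.3, 80.2 and 84.9 in the 48 h controls, so the groups overlapped by 1 array, and 77.8% of all probe sets overlapped in this comparison. The log2 fold change was -0.42 (SE 0.215, limma adjusted p = 0.382). Its 95% interval of -0.86 to 0.03 includes no change. In this comparison 3.2% of all probe sets were called in either direction.

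Set against FAMA-EAR directly, with estrogen for 48 h on both sides, FAMA gave a signal of AT2G40435 that was 14.3 times as high. The means were 776.2 ± 109 with FAMA and 54.2 ± 15.9 with FAMA-EAR (SD, n = 3 each). The log2 fold change was 3.44 (SE 0.215, 95% interval 2.99 to 3.88, limma adjusted p = 1.55e-10), where 11.1% of all probe sets were called higher. The groups did not overlap, as was so in this direction for 20.5% of all probe sets. The FAMA transcript itself was 5.89 times as high with FAMA as with FAMA-EAR, so these groups differ both in the EAR domain and in the level of the induced transcript.

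In order of level, AT2G40435 was highest at 48 h of FAMA, then at 4 h of FAMA, and then in the 48 h controls, with FAMA-EAR and the 4 h controls at the low end. Neighbours in this order were apart on every array, except that FAMA-EAR overlapped with both control groups. Only 0.268% of probe sets had every FAMA 48 h array above every FAMA 4 h array and these above all other arrays; the 4 h arrays that picked the gene are part of this count. The controls themselves were 1.88 times as high at 48 h as at 4 h and did not overlap, which holds in this direction for 14.7% of probe sets. The FAMA effect at 48 h exceeded that at 4 h by 0.92 log2 units (SE 0.304), or 1.06 relative to the median of all probe sets, which was -0.14. Both last differences share the arrays that picked the gene and are not tested.

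**Figure D2:**
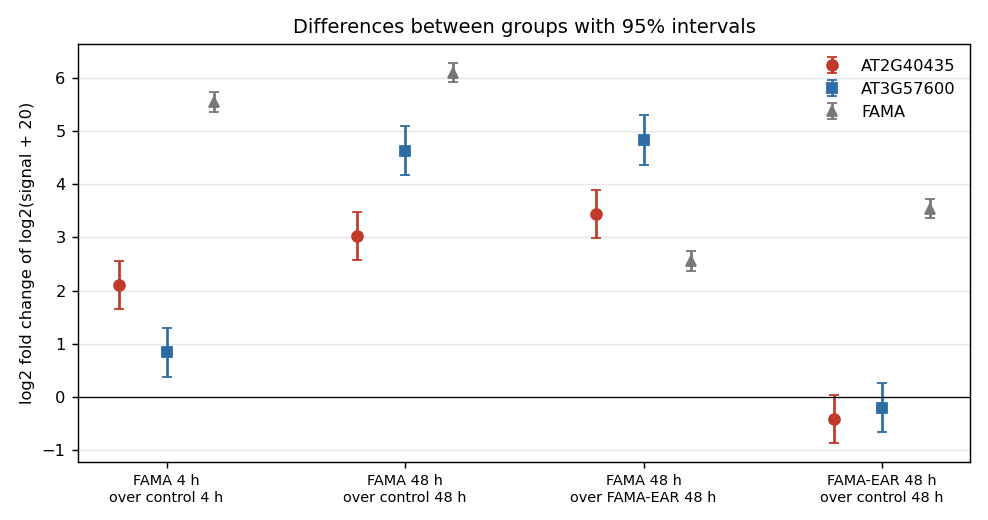
Log2 fold changes of log2(signal + 20) with 95% intervals from limma, for AT2G40435, AT3G57600 and FAMA in 4 comparisons (3 arrays a group). AT2G40435 is at 2.10 at 4 h and 3.02 at 48 h of FAMA, AT3G57600 at 0.84 and 4.63, and both have intervals that reach 0 for FAMA-EAR over control.

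AT3G57600 had its high level at 48 h of FAMA. Its signal there was 3589.3, 3732.7 and 3809.6, against 90.3, 114.2 and 132.9 with FAMA-EAR and 125.8, 141.9 and 125.3 in the 48 h controls. The means were 3711 ± 112 with FAMA and 131.0 ± 9.44 in the controls (SD, n = 3 each), a ratio of 28.3. The log2 difference was 4.63 (SE 0.223), the 11th of the 22746 in size, a description since these arrays picked the gene. Replicates were close, with an SD of 3.01% of the mean at 48 h of FAMA.

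At 4 h of FAMA AT3G57600 was only slightly higher, and the call did not hold under most alternatives. A pick for a late rise may itself favour a small difference at 4 h, so this test is not independent of the choice. Its signal was 183.1, 92.2 and 242.8 with FAMA, against 95.1, 88.8 and 63.6 in the controls. The second FAMA array lay within the control range and the highest value came from the third, the array that stands apart, so the groups overlapped, as did 82.6% of all probe sets. The means were 172.7 ± 75.8 with FAMA and 82.5 ± 16.7 in the controls (SD, n = 3 each), a ratio of 2.09. The log2 fold change was 0.84 (SE 0.223, 95% interval 0.37 to 1.30, limma adjusted p = 0.0444), where 2.92% of all probe sets were called. Without the third FAMA array it was 0.57 (limma adjusted p = 0.196), and with the replicate number as a block the adjusted p was 0.0535. The call was lost under 20 of 24 alternatives, 13 of which left out 1 array.

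With FAMA-EAR no rise of AT3G57600 was seen. The means were 112.5 ± 21.4 with FAMA-EAR and 131.0 ± 9.44 in the 48 h controls (SD, n = 3 each), and the groups overlapped. The log2 fold change was -0.20 (SE 0.223, 95% interval -0.66 to 0.26, limma adjusted p = 0.770). The control arrays are the ones that helped to pick the gene, while the FAMA-EAR arrays are not. Set against FAMA-EAR, FAMA at 48 h was higher by 4.83 log2 units (SE 0.223), a ratio of 33.0, given with no test because it shares the FAMA arrays of the choice.

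In order of level, AT3G57600 was highest at 48 h of FAMA, with every other group far below it, and 7.47% of probe sets had every FAMA 48 h array above all others. FAMA at 4 h, the 48 h controls and FAMA-EAR came next, and each overlapped with its neighbour in this order. The 4 h controls were lowest and overlapped with FAMA-EAR but not with the 48 h controls, which were 1.59 times as high. The FAMA effect at 48 h exceeded that at 4 h by 3.79 log2 units (SE 0.315), or 3.93 relative to the median of all probe sets, and 13.6% of these were called for this difference. It is not tested here, since the 48 h arrays picked the gene. Both genes thus had their highest level at 48 h of FAMA, and over the 15 arrays their log2 values had a Pearson correlation of 0.898, a description of arrays that share 5 group levels.

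**Figure D3:**
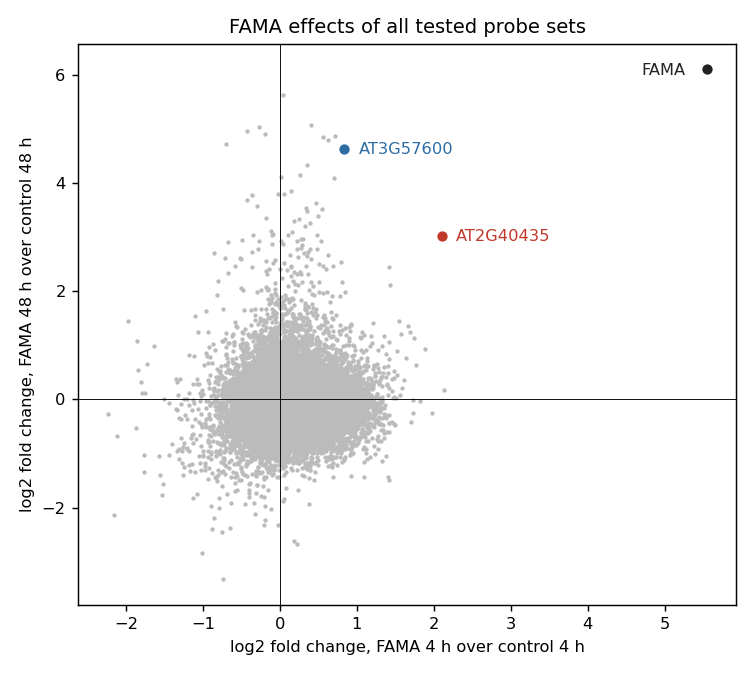
Log2 fold changes over control at 4 h (x axis) and 48 h (y axis) of FAMA for all 22746 probe sets (grey points), with both regulators and FAMA marked. AT2G40435 lies far to the right as well as high up, while AT3G57600 lies high at 48 h and near the grey cloud at 4 h.

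At 4 h of FAMA 0 of the 5 measured tissue markers passed (limma, 0 at an unadjusted p under 0.05). In that comparison 2.92% of all probe sets were called. All 5 markers passed at 48 h of FAMA, where both regulators were high and 21.6% of all probe sets were called. The guard cell markers rose, and those of green tissue and roots fell. AT1G22690, taken here as a marker of guard cells, had means of 2539 ± 429 at 4 h of FAMA and 2270 ± 148 in the controls (SD, n = 3 each). Its log2 fold change was 0.15 (SE 0.107, limma adjusted p = 0.486) at 4 h and 1.83 (SE 0.107, limma adjusted p = 7e-11) at 48 h. CHX20, a cation exchanger of guard cells, was at 0.28 (limma adjusted p = 0.444) at 4 h and 0.98 (limma adjusted p = 0.000302) at 48 h. At 48 h of FAMA the log2 fold change was -0.51 for RCA (SE 0.0974, limma adjusted p = 0.000494), -0.72 for LHCB4.1 (SE 0.104, limma adjusted p = 2.13e-05) and -0.68 for PYK10 (SE 0.0962, limma adjusted p = 1.76e-05). These 3 were also lower with FAMA than with FAMA-EAR, by log2 fold changes of -0.36, -0.77 and -0.56 (limma adjusted p = 0.00912, 8.98e-06 and 0.000128). Both RCA calls ended after quantile normalization (adjusted p = 0.727 and 0.985). That against FAMA-EAR also ended with equal array medians (adjusted p = 0.0798) and without the first FAMA-EAR array (adjusted p = 0.0584). The part of these markers in the differences of either regulator was not tested. With FAMA-EAR AT1G22690 was at -0.02 and CHX20 at -0.20 (limma adjusted p = 0.965 and 0.690).

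A measure of RNA quality also moved with the 48 h groups. For actin and GAPDH the 3′ over 5′ signal of the array's control probe sets, as a mean log2 value, was 0.199, 0.191 and 0.214 with FAMA and 0.558, 0.731 and 0.533 with FAMA-EAR, against 0.301, 0.495 and 0.297 in the controls. On the older probe sets of the same genes FAMA-EAR was again highest, at 2.06, 2.07 and 1.93, but FAMA (1.30, 1.22 and 1.54) overlapped with the controls (1.57, 0.913 and 1.53). Its part in the differences of either gene was not tested. At 4 h, where AT2G40435 differed, the first ratio overlapped between FAMA (0.381, 0.447 and 0.376) and the controls (0.345, 0.399 and 0.369). The ratio of the older probe sets did not overlap there, at 1.39, 1.52 and 1.45 with FAMA, against 1.57, 1.75 and 1.64 in the controls.

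The genes whose pattern was most like that of each regulator were taken as the 8 with the highest Pearson correlation of log2(signal + 20) over the 15 arrays, among probe sets that name 1 gene. They are descriptions, since high correlation follows from the groups in which the regulators are high. For AT2G40435 the 8 values lay between 0.935 and 0.940, and between 0.936 and 0.957 over the 14 arrays left without the third of FAMA 4 h. The nearest were AT5G27830, AT5G47060 and AT1G12845, followed by AT3G53400, AT2G01680, AT5G67020, AT1G30200 and AT4G24480. The tables used here give these by locus only.

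AT2G40435 was picked for its rise at 4 h, so a larger difference there than in other genes may follow from the choice. The genes nearest to AT2G40435 had smaller differences than it had at both times of FAMA. Their log2 differences ranged from 0.28 to 0.92 at 4 h of FAMA, from 0.68 to 2.54 at 48 h, and from -0.46 to 0.31 with FAMA-EAR, where AT2G40435 itself had -0.42. AT5G67020 had the largest difference at 48 h, with signals of 545.5, 526.1 and 546.1 with FAMA, against 78.8, 64.9 and 86.2 in the controls. AT4G24480 had 537.7, 474.7 and 482.9 with FAMA, against 125.1, 107.5 and 119.8 in the controls. AT1G12845 had the largest difference at 4 h, 0.92. AT5G27830, the nearest, had 822.1, 881.5 and 870.5 at 48 h of FAMA, against 397.6, 408.4 and 374.5 in the controls. At 4 h it had 519.6, 402.3 and 548.4 with FAMA, against 396.7, 335.8 and 373.5 in the controls, and these groups did not overlap. FAMA itself correlated with AT2G40435 at 0.800.

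For AT3G57600 the 8 nearest correlations lay between 0.979 and 0.989, and between 0.981 and 0.989 without that array. All rest largely on the 3 arrays of FAMA 48 h, which stand apart from the other 12 for this gene. AT1G03440 was nearest (0.989), with signals of 2827, 3003.3 and 2695.3 at 48 h of FAMA, against 303.4, 402.7 and 344.9 in the controls. TET4, a tetraspanin of the cell membrane, had 1030.1, 1055.7 and 1224.7 with FAMA, against 66.6, 80.3 and 33.1 in the controls. The enzyme gene AAE16, an acyl activating enzyme, had 1428, 1935.9 and 1798 with FAMA, against 142.3, 105.8 and 138.4 in the controls.

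Other genes near AT3G57600 were PGL34, which encodes a plastoglobulin, a protein of lipid droplets in plastids, and APL4, a large subunit of the enzyme that makes ADP-glucose for starch. APL4 had signals of 654.1, 718.5 and 833.1 at 48 h of FAMA, against 59.7, 77.8 and 76.6 in the controls. AT5G43020, AT3G20015 and AT5G66440 complete the 8. AT5G66440 had 5347.6, 5002.5 and 5664.2 with FAMA, against 349.5, 362.6 and 378.7 in the controls. At 4 h its signals overlapped, at 376.9, 407.5 and 428.9 with FAMA, against 387.7, 405.1 and 378.5 in the controls. Over all 8, log2 differences ranged from 1.65 to 3.86 at 48 h of FAMA, from 0.05 to 0.49 at 4 h, and from -0.32 to 0.22 with FAMA-EAR. FAMA itself correlated with AT3G57600 at 0.646.

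**Figure D4:**
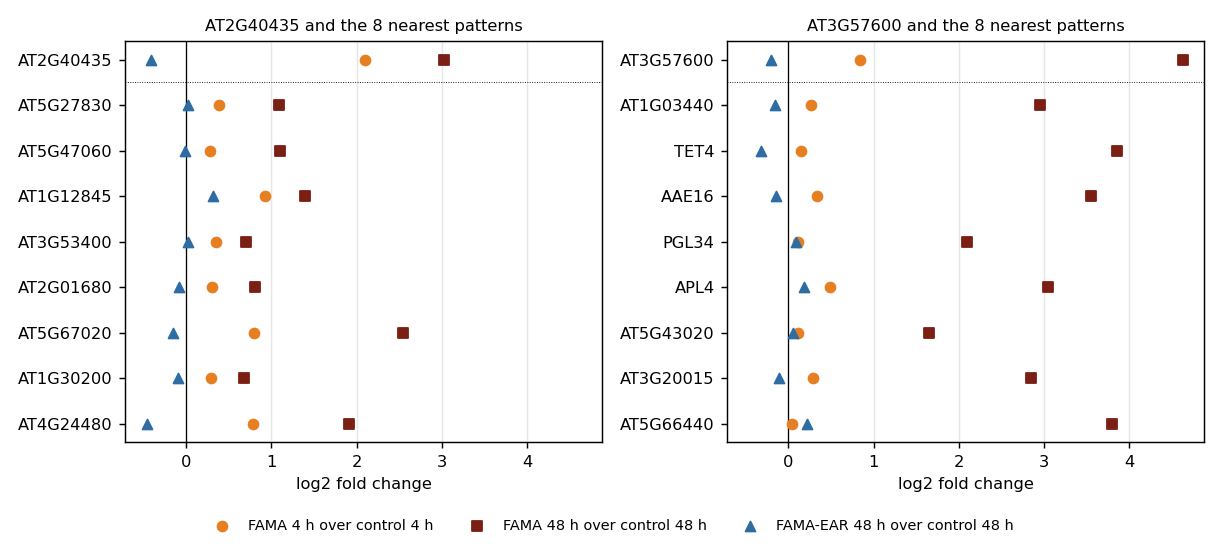
Log2 fold changes over the control of the same time for each regulator (top row of its panel) and the 8 genes with the most similar pattern over 15 arrays, with circles for FAMA 4 h, squares for FAMA 48 h and triangles for FAMA-EAR 48 h. Near AT2G40435 the circles lie between 0.28 and 0.92, and near AT3G57600 they lie between 0.05 and 0.49, while the squares are highest in every row.

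Other bHLH genes were read next, first those listed for the subgroup that holds FAMA. That list does not hold AT2G40435. Of 9 other genes listed for the bHLH subgroup that holds FAMA, 6 had a named probe set, and 0 passed at 4 h of FAMA (limma, also 0 at an unadjusted p under 0.05), where 2.92% of all probe sets did. At 48 h of FAMA 0 were higher and 1 was lower, where 21.6% of all probe sets were called and 11% were lower. The list median was -0.56, against -0.02 for all probe sets. It lies between AT1G22490 (-0.63) and AT4G01460 (-0.49), and neither of these passed (limma adjusted p = 0.237 and 0.210). AT1G22490 and AT5G65320 had low signals, with means of 28.1 and 36.9 at 48 h of FAMA. SPCH, the bHLH factor that starts the stomatal lineage, was the one that fell, with signals of 109.5, 126.6 and 176.2 with FAMA against 243.3, 231.9 and 255.5 in the controls (log2 fold change -0.76, SE 0.193, limma adjusted p = 0.00573). It was also below FAMA-EAR, by a log2 fold change of -0.79 (SE 0.193, limma adjusted p = 0.00436). MUTE, the factor of the middle step, was near background and had -0.65 at 48 h of FAMA (SE 0.425, limma adjusted p = 0.344). With FAMA-EAR, where 3.2% of all probe sets were called, 0 of the 6 passed (limma, 0 at an unadjusted p under 0.05). The list median there was 0.00 against -0.01 for all.

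A second reading took every gene whose symbol or synonym in the tables says bHLH, which gave 7 genes, among them AT1G22490 (bHLH94) of the list above. At 4 h, where 2.92% of all probe sets were called, 0 passed (limma, 0 at an unadjusted p under 0.05). The median was 0.09 as for all probe sets. At 48 h of FAMA 1 of the 7 rose, where 10.6% of all probe sets were called higher. This was BHLH101, a bHLH gene known from iron deficiency. Its signals were 506, 512.4 and 532.5 with FAMA and 3.5, 32.4 and 21.3 with FAMA-EAR, against 95.1, 83.7 and 120.5 in the controls. The log2 fold change was 2.18 with FAMA (SE 0.277, limma adjusted p = 4.73e-06) and -1.68 with FAMA-EAR (SE 0.277, limma adjusted p = 0.00102). FAMA exceeded FAMA-EAR by 3.86 (SE 0.277, limma adjusted p = 1.29e-09), and in that comparison bHLH121 was lower by a log2 fold change of -0.33 (SE 0.115, limma adjusted p = 0.0417, and 0.0523 with the replicate number as a block), where 11.6% of all probe sets were called lower. The bHLH121 call ended without the first or the third FAMA array or the first or the second FAMA-EAR array (adjusted p = 0.121 to 0.165). BHLH101 was thus raised by FAMA like AT2G40435 at 48 h, but at 4 h it had 0.40 (SE 0.277, limma adjusted p = 0.476), and whether the genes differ there was not tested. No probe set named SCRM, SCRM2, FLP, MYB88 or AT3G56220 alone, so the partners of FAMA are not analysed here. AT3G56220 was listed here as the closest relative of AT2G40435, so that relative was not read either.

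Relatives of AT3G57600 could be read for few genes. No gene was found by the words AP2, ERF or DREB in the tables, and 2 of 10 genes listed here as DREB genes, the AP2/ERF branch that acts in drought and cold, had a probe set of their own. Neither passed at 4 h of FAMA (limma, 0 at an unadjusted p under 0.05), where 2.92% of all probe sets were called. At 48 h of FAMA, where 11% of all probe sets were called lower, AT1G75490 fell, opposite to AT3G57600. Its signals were 7.3, 37.7 and 49.5 with FAMA against 125, 75.6 and 126.7 in the controls. Its log2 fold change was -1.41 (SE 0.358, limma adjusted p = 0.00619), a call that ended (adjusted p = 0.0574) when FAMA replicate 1 was left out. AT5G18450 had -0.19 (SE 0.305, limma adjusted p = 0.771). With FAMA-EAR neither passed, at -0.69 and 0.43, where 3.2% of all probe sets were called.

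Of 10 genes known to respond to DREB factors, 3 cold-regulated genes had a probe set of their own. At 4 h of FAMA 2 of the 3 rose, where 1.15% of all probe sets were called higher, COR15A by 1.19 (SE 0.309, limma adjusted p = 0.0386) and COR15B by 1.29 (SE 0.294, limma adjusted p = 0.0176). At 48 h of FAMA, where 10.6% of all probe sets were called higher and 11% lower, COR15A rose by 1.04 (SE 0.309, limma adjusted p = 0.0175), COR15B had -0.20 (SE 0.294, limma adjusted p = 0.745), and COR47 fell by a log2 fold change of -0.26 (SE 0.0833, limma adjusted p = 0.026). With FAMA-EAR, where 3.2% of all probe sets were called, COR15B rose by 1.11 (SE 0.294, limma adjusted p = 0.0418) and COR47 by 0.39 (SE 0.0833, limma adjusted p = 0.0101), and COR15A had 0.90 (SE 0.309, limma adjusted p = 0.133). AT3G57600 itself had 0.84 at 4 h of FAMA, 4.63 at 48 h of FAMA and -0.20 with FAMA-EAR. The mean signal of COR15A was 1977 in the 4 h controls, 87.4 in the 48 h controls and 200 at 48 h of FAMA. Whether any of the 3 follows AT3G57600 was not tested. COR47 was lower with FAMA than with FAMA-EAR (-0.66, SE 0.0833, limma adjusted p = 3.7e-06), and so was COR15B (-1.31, SE 0.294, limma adjusted p = 0.00209). All 6 calls against a control ended with no variance trend (adjusted p = 0.0801 to 0.173). Each also ended when 1 array was left out, at adjusted p = 0.0519 to 0.167. At 4 h this was so for any control or the first or the third FAMA array (COR15A), and for the first or the third control or the first FAMA array (COR15B). At 48 h of FAMA it was so for the third control or the third FAMA array (COR15A), and for the first or the third control or the second or the third FAMA array (COR47). With FAMA-EAR it was so for any array (COR15B), and for the second of either group (COR47).

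**Figure D5:**
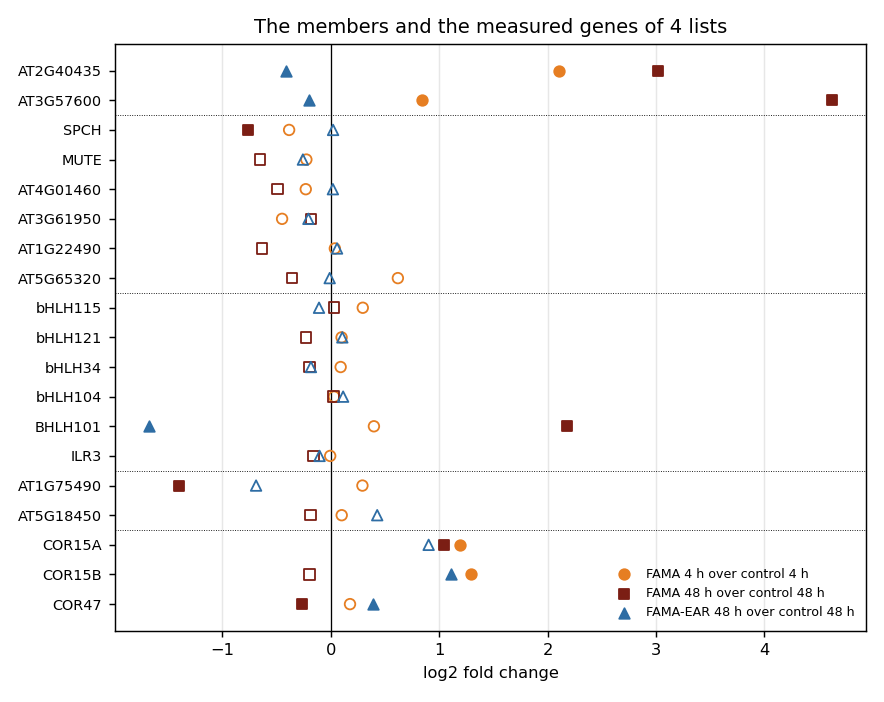
Log2 fold changes over the control of the same time for both regulators and for the measured genes of 4 lists (bHLH subgroup of FAMA, bHLH genes by annotation, DREB genes, DREB-responsive genes), parted by dotted lines. Symbols are as labelled; for list genes a filled symbol passed limma at an adjusted p under 0.05 and an open one did not, while the regulators' symbols are all filled and say nothing of a test. The squares of both regulators lie at 3.02 and 4.63, and the next square, that of BHLH101, is at 2.18. AT3G57600 was picked for its rise at 48 h, so the place of its square follows from the choice.

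The genes beside the regulators on the chromosome were read as a check of position, taking the 2 nearest measured genes on each side. The genes directly next to AT2G40435, AT2G40430 and AT2G40440, did not pass at either time of FAMA. At 48 h of FAMA their log2 fold changes were -0.01 (SE 0.119, limma adjusted p = 0.976) and -0.18 (SE 0.421, limma adjusted p = 0.858). AT2G40440 was near background, at 3.3, 13.5 and 5.1 with FAMA against 4.1, 28.4 and 4.3 in the controls, so it can show little. Of the 8 neighbours, 0 passed at 4 h (limma, 2 at an unadjusted p under 0.05), where 2.92% of all probe sets were called. At 48 h of FAMA 2 were higher, where 10.6% of all probe sets were. One was AT2G40460, 5 genes away, with signals of 526.6, 510.5 and 585.3 with FAMA against 244.3, 231.2 and 236.3 in the controls (log2 fold change 1.12, SE 0.145, limma adjusted p = 5.8e-06). The other was AT3G57570, 5 genes from AT3G57600, with 0.48 (SE 0.156, limma adjusted p = 0.0291), a call lost without the first or the third control or the second or the third FAMA array (adjusted p = 0.0709 to 0.145). In FAMA over FAMA-EAR at 48 h 2 of the 8 were higher, where 11.1% of all probe sets were called higher. AT3G57570 was not among them (limma adjusted p = 0.122). AT3G57630, 3 genes from AT3G57600, had 391.6, 358.3 and 419.2 with FAMA against 185, 219.3 and 258.7 with FAMA-EAR. No gene directly next to AT3G57600 was measured, the nearest being 5 genes away on one side and 2 on the other.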

How the data were processed

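The deposited values are MAS5 signal intensities, made by the authors with MAS5 per the submitters' processing notes, covering 22810 probe sets and 15 arrays. After removal of the lowest and highest 2% the array means were 500.04 to 500.048. Software version, scaling target and detection calls were not analysed here. Here 64 control probe sets were left out and log2(signal + 20) was fitted in limma 3.58.1 (R 4.3.3), with a mean for each of 5 groups, 10 residual degrees of freedom and a variance trend. The offset is the median of all signals, 197.4, divided by 10. Tests were two-sided, with Benjamini-Hochberg adjustment over 22746 probe sets and a threshold of 0.05. An exact test of 3 arrays against 3 cannot go below p = 0.1. Precision rests on the number of arrays, as no counts are involved.

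Genes were named through the platform's table, matched to RefSeq genes of TAIR10.1: 13513 probe sets named 1 gene (13436 matched), 503 named several, and 8730 tested ones had no name. No coordinates or sequences are given, as the array's build is not stated. Named genes were both regulators, FAMA, the 8 most similar genes of each, the measured members of 4 short lists, and, of 2 families by annotation, those past the threshold. Chromosome neighbours were added later. Members, lists and rules were chosen with earlier results of these data known. No 2 arrays were identical. The fit recovered known changes in data simulated with independent normal noise. These held no odd array, so they do not show how the fit handles the third FAMA 4 h array. Same-numbered arrays did not deviate together (r from -0.0612 to 0.0419 over 15 pairs), so replicate numbers were used as a block only as an alternative. Figures used matplotlib 3.10.9 under Python 3.11.15.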

Additional observations from a re-analysis of the deposited data

Results flagged for a closer look

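A limma test of the difference between the FAMA effects at 48 h and 4 h passed for 10 genes named beside the regulators. Of all probe sets 13.6% were called for this difference. The 10 were FAMA, 4 of 5 tissue markers, 1 of 7 bHLH genes by annotation and 1 of 8 neighbours. They also held 1 of 2 DREB genes and 2 of 3 DREB-responsive genes, but 0 of 6 in the bHLH subgroup of FAMA. Relative to that at 4 h, the effect at 48 h was higher by 0.55 log2 units for FAMA itself (adjusted p = 0.0038), by 1.68 for AT1G22690, a marker of guard cells (adjusted p = 1.52e-07), by 1.78 for BHLH101 (adjusted p = 0.00339) and by 0.84 for AT2G40460 (adjusted p = 0.00775). It was lower for 3 markers of green tissue and roots, by -0.66 for RCA (adjusted p = 0.00214), -0.81 for LHCB4.1 (adjusted p = 0.000611) and -0.75 for PYK10 (adjusted p = 0.000587). After quantile normalization RCA (adjusted p = 0.472) and PYK10 (adjusted p = 0.0885) did not pass, nor did RCA with equal array medians (adjusted p = 0.0987). The difference was -1.70 for AT1G75490 (adjusted p = 0.0284), -1.49 for COR15B (adjusted p = 0.0194) and -0.44 for COR47 (adjusted p = 0.0143). The BHLH101 difference did not pass at an offset of 1 (adjusted p = 0.0777). That of AT1G75490 did not pass without any one of the 4 h controls, the first or the third 48 h control, the third FAMA 4 h array or the first FAMA 48 h array (adjusted p = 0.0503 to 0.0906). COR15B did not pass without the first or the second FAMA 48 h array (adjusted p = 0.0518 and 0.0633), and COR47 without the third (adjusted p = 0.0526). With no variance trend AT1G75490, COR15B and COR47 did not pass (adjusted p = 0.0708, 0.0776 and 0.0642), nor did AT1G75490 after quantile normalization (adjusted p = 0.0521) or COR47 with equal medians (adjusted p = 0.166). The median of all probe sets in this difference was -0.14. For AT2G40435 and AT3G57600 the difference contains the arrays that picked them and is not tested.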

How the results depend on the processing

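For AT2G40435 the calls of FAMA at 48 h over control and over FAMA-EAR held under all 24 alternatives, with log2 fold changes of 2.29 to 3.30 and 2.50 to 3.84. FAMA-EAR over control passed for neither gene under any of 24 (adjusted p = 0.260 to 0.691 for AT2G40435 and 0.611 to 0.962 for AT3G57600). The 4 h difference of AT2G40435 was 2.55 at an offset of 1 and 1.27 at an offset of 100, and that between controls 0.92 and 0.33. At an offset of 100 AT3G57600 had 4.04 at 48 h over control and 4.17 over FAMA-EAR. Its 4 h call was lost at an offset of 100 (0.54), with equal array medians (0.74), after quantile normalization (0.72), with array weights (0.72), and at 0.84 with no variance trend, with the replicate block, or with only the groups compared. Leaving out 1 array gave 0.57 to 1.19, with the call lost in 13 of 15. Its difference of effects was 3.44 to 4.06 with 1 array left out, lowest without the second FAMA 4 h array. The cause of these changes was not tested.

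Among the lists, the bHLH genes by annotation that differed between FAMA and FAMA-EAR were 1 with the replicate block and 1 to 2 with 1 array left out, and the DREB genes at 48 h of FAMA 0 to 1. Of the DREB-responsive genes, 2 in each comparison with a control, 0 were called with no variance trend in any of the 3. With equal medians 1 was called at 4 h and 1 at 48 h of FAMA, and 0 with FAMA-EAR. At 4 h of FAMA 1 was called at an offset of 1, and 1 was called at 48 h of FAMA and with FAMA-EAR after quantile normalization or at an offset of 100. With 1 array left out they were 0 to 2 in each of these 3 comparisons. The block changed no call of AT2G40435. Neighbours called at 48 h of FAMA were 1 to 2 over alternatives chosen after seeing the data. In all, 664 probe sets were called at 4 h and 303 with no variance trend; with FAMA-EAR 729, 322 with no trend, 463 with equal medians and 1217 with array weights. The lists reach few genes, and low signals limit what MUTE, AT1G22490, AT5G65320, AT1G75490, AT2G40440, BHLH101 with FAMA-EAR and the uninduced regulators can show.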
